A study of Macaca mulatta with 24 samples.

Results

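The genes described here mark the stem cells at the base of the intestinal crypt, or are switched on there by Wnt signals. A set of 10 symbols was asked for: LGR5, ASCL2, OLFM4, SMOC2, AXIN2, RNF43, EPHB2, SOX9, PROM1 and CD24. Members were all probes that carry 1 of these symbols in the deposited ileum table, which names 16094 distinct genes. Of the 10, 6 were found: LGR5 (2 probes), OLFM4 (1 probe), RNF43 (3 probes), EPHB2 (1 probe), SOX9 (2 probes) and PROM1 (4 probes). ASCL2, SMOC2, AXIN2 and CD24 had no probe under their symbol and were not analysed here.

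The epithelium of the small bowel is renewed from stem cells at the crypt base, which are kept dividing by Wnt ligands from their neighbours. LGR5 is a receptor for R-spondins, secreted proteins that strengthen Wnt signalling, and RNF43 is a ubiquitin ligase that removes Wnt receptors from the cell surface and is itself a Wnt target. The crypt is the part of the bowel that is most sensitive to ionizing radiation: its dividing cells are lost first, and the surviving stem cells then rebuild it.

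Ileum of 24 young-adult male rhesus macaques without known disease was studied, with 1 Agilent single-color array for each animal and no pooling. The 4 controls were sham-irradiated (0 Gy), carry the day label 4 and served every comparison with unirradiated tissue, so those comparisons share their baseline. The other 20 animals received 1 uniform total-body irradiation (TBI) with cobalt-60 gamma rays. After 6.7 Gy and after 7.4 Gy, ileum was taken from 4 animals on day 4, from 4 on day 7 and from 2 on day 12. For the last group 1 protocol note in the labels gives 21 days, whereas the titles and day fields give 12. The question asked of these genes was whether they were lower at the time of injury on day 4 and higher during regrowth on day 7. RNA came from whole gut wall, and fewer cells of a type and less RNA per cell cannot be told apart in such tissue.

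Each value below is a log2 signal, with 0 at the 75th percentile of the probes on the array, so that 1 unit is a 2-fold difference. Levels of different probes are not comparable with each other. Between 72.7% and 88.1% of probes were well above background on an array, and no spot was saturated. Testing required signal well above background in all animals of some group, which 36108 probes and 12 of the 13 member probes met. The exception was the dimmest RNF43 probe. To be called altered, a probe had to change 2-fold or more with a limma adjusted p under 0.05. Where a gene has several probes, its values are those of the brightest tested one unless another is named. Arrays lay 4 to a slide on 6 slides. All controls lay in position 1 of a slide, and no control shared a position with an array of day 7 or day 12, so position and time cannot be told apart for those days. Nor did a control share a position with the 7.4-Gy arrays of day 4, which all lay in position 2. A fit with position compares these groups only by way of the 6.7-Gy arrays of day 4, which lay in both positions.

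None of the 12 member probes was called altered in any of the 12 comparisons that were made. Among all tested probes, 0.978% were called on day 4 after 6.7 Gy and 2.33% on day 4 after 7.4 Gy, against unirradiated ileum. On day 7 the shares were 0.235% after 6.7 Gy and 0.568% after 7.4 Gy. On day 12 they were 0.108% and 0.0443%, again for the lower dose first. Between day 7 and day 4, 0.354% of probes were called after 6.7 Gy, 0.942% after 7.4 Gy and 1.06% for the mean of both doses. If the p of limma was left unadjusted, OLFM4 passed on day 4 after 7.4 Gy, as did 3.98% of tested probes, and on day 7 after 6.7 Gy, as did 1.32%, and no other member probe passed in any comparison. At shares this low, 0 of 12 probes does not differ from the background.

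LGR5, the gene by which crypt base stem cells are usually recognised, differed from unirradiated ileum by less than its error on day 4 and on day 7. In the 4 unirradiated animals the log2 signal was -3.14, -2.64, -2.75 and -2.57. On day 4 it was -3.08, -2.61, -2.78 and -2.76 after 6.7 Gy, and -2.61, -2.52, -2.82 and -2.81 after 7.4 Gy. The groups overlap almost completely. The difference from unirradiated ileum on day 4 was -0.03 ± 0.14 (SE, 95% interval -0.33 to 0.27) after 6.7 Gy and 0.09 ± 0.14 (-0.21 to 0.39) after 7.4 Gy, with limma adjusted p-values of 0.91 and 0.76. A 2-fold loss of LGR5 signal on day 4 lies outside both intervals. In whole ileum the same data do not tell whether the number of LGR5 cells and the RNA of each cell moved in opposite ways.

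Regrowth did not show as a higher LGR5 signal either. On day 7 the log2 signal was -2.80, -2.67, -2.85 and -2.48 after 6.7 Gy, and -2.97, -3.04, -2.55 and -2.72 after 7.4 Gy. Between day 7 and day 4 LGR5 differed by 0.11 ± 0.14 after 6.7 Gy (adjusted p = 0.70), by -0.13 ± 0.14 after 7.4 Gy (0.67) and by -0.01 ± 0.10 for the mean of both doses, with a 95% interval of -0.22 to 0.20. The signs differ between doses and neither difference exceeds its error. On day 12 LGR5 was at -2.35 and -2.48 after 6.7 Gy and at -2.70 and -2.52 after 7.4 Gy, and the means of these groups were the highest of the 7. Both arrays of the lower dose lay above every control (difference 0.36 ± 0.18, adjusted p = 0.56), as did 15.3% of all tested probes in that comparison. The second LGR5 probe did not share this, with -0.07 ± 0.34 on day 12 after 6.7 Gy. Over the 24 arrays the 2 LGR5 probes followed each other only weakly (Pearson r = 0.21), and on neither did a comparison of day 4 or day 7 with unirradiated ileum exceed 0.19 in size.

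OLFM4, a secreted glycoprotein abundant in crypt base cells of the human small bowel and also made by maturing neutrophils, had the largest differences of the set and by far the largest spread. In unirradiated ileum its log2 signal was -7.42, -7.42, -6.90 and -6.35, and it was well above background in the last of these animals only. On day 4 after 7.4 Gy it was -3.03, -4.44, -3.63 and -5.28, well above background in every animal. All 4 of these arrays lay above all 4 controls, an order that 7.84% of tested probes had. OLFM4 was well above background in all animals only in this group and on day 7 after 6.7 Gy, and was tested because of these groups, so that its order against the controls in both is partly set by the filter. The difference was 2.93 ± 1.34 (SE, 95% interval 0.14 to 5.72), with a limma adjusted p of 0.19, and 2.46 with signals near background raised to the lowest signal well above background on their array. Fitted on these groups alone, without the spread of the other arrays, the same difference had an adjusted p of 0.026 and would be called, whereas with normexp background correction it was 0.89 (adjusted p = 0.47).

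After 6.7 Gy the 4 animals of day 4 did not resemble each other. OLFM4 was at -6.01 and -8.83 in replicates 1 and 2, which were not well above background, at -3.14 in replicate 3 and at 0.64 in replicate 4. The mean difference from unirradiated ileum, 2.69 ± 1.34 (adjusted p = 0.24), averages 2 animals not well above background and 2 far above all controls, and it was 1.03 without replicate 4 and 4.19 without replicate 2. With normexp it was 1.52. The low pair was hybridized in position 1 of its slides and the high pair in position 2, the position of all 7.4-Gy arrays of day 4. With position in the fit the difference turned to -0.40 after 6.7 Gy (adjusted p = 0.89) and to -3.25 after 7.4 Gy (adjusted p = 0.31). For OLFM4 on day 4, dose, animal and position cannot be told apart. On slides that held a control as well, the arrays of day 4 exceeded it by 3.77 and 7.24 after 6.7 Gy and by 3.35 and 1.91 after 7.4 Gy, with signals near background raised to the floor. For 6.7 Gy these were the high pair, and the low pair shared no slide with a control.

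On day 7 after 6.7 Gy OLFM4 was at -5.63, -3.31, -2.11 and -2.64, well above background throughout. All 4 arrays lay above all controls, as did 4.47% of tested probes. The difference was 3.60 ± 1.34 (95% interval 0.81 to 6.39), with a limma adjusted p of 0.35. Since only 1 of the 4 controls was well above background, its size depends on readings near background, and with signals under the lowest one well above background on their array raised to that floor it was 3.14. On the 4 slides that carried both groups it was 1.27, 3.28, 4.27 and 3.71 with that floor. With normexp background correction it was 1.47. After 7.4 Gy the values were -4.81, -2.88, -7.19 and -4.96, of which the third was not well above background, and the difference was 2.06 ± 1.34 (adjusted p = 0.52), or 0.74 with normexp and 1.64 with the floor. It was 1.37 without replicate 2 and 2.81 without replicate 3. On the 2 slides that held a control as well it was -0.12 and 1.63 with the floor.

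On day 12 OLFM4 was near background in most animals, as in the controls. The log2 signal was -6.72 and -6.68 after 6.7 Gy, not well above background on either array, and -7.91 and -6.26 after 7.4 Gy, where the higher one was. The differences from unirradiated ileum were 0.32 ± 1.64 and -0.06 ± 1.64 (0.35 and 0.49 with the floor), with only 2 animals in each group and 95% intervals of -3.09 to 3.74 and -3.48 to 3.35, so that neither a difference nor a return to the control level is shown. From day 4 to day 7 OLFM4 did not shift in 1 direction: the difference was 0.91 ± 1.34 after 6.7 Gy, -0.87 ± 1.34 after 7.4 Gy and 0.02 ± 0.94 for the mean of both doses, with a 95% interval of -1.95 to 1.99. With the floor these were 0.15, -0.82 and -0.34. Leaving out 1 array of day 4 moved the 6.7-Gy value between -0.59 (without replicate 2) and 2.57 (without replicate 4). Within groups the SD of OLFM4 was 2.04, larger than that of 99.9% of tested probes, whose median was 0.29.

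**Figure D1:**
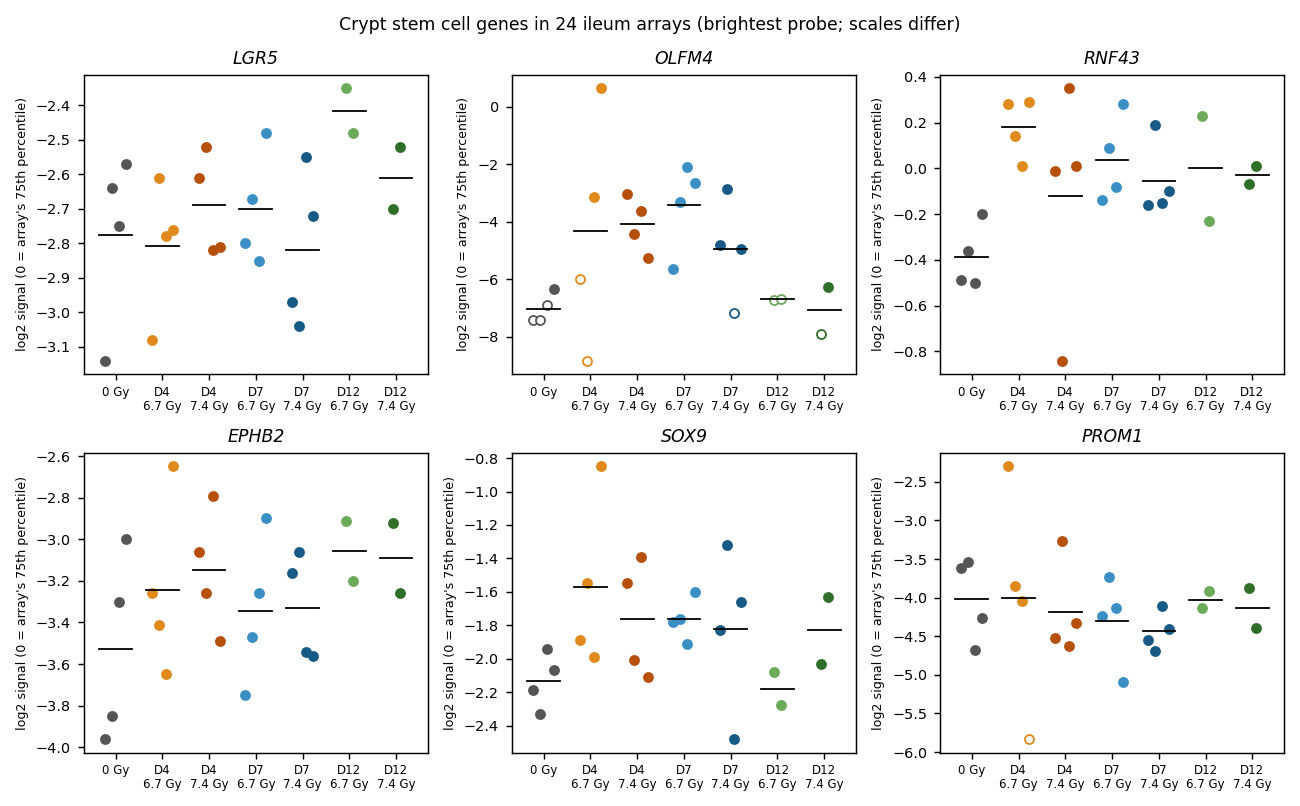
Log2 signal (y axis, 0 at the 75th percentile of the array, a separate scale in each panel) of the 6 genes in every array, by group on the x axis; bars are group means and open symbols arrays not well above background. LGR5 spans less than 1 unit over all 24 arrays, whereas OLFM4 runs from -8.83 to 0.64 and is open in most animals without irradiation or on day 12.

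RNF43, which lowers the number of Wnt receptors, lay slightly above unirradiated ileum in most irradiated animals. Its log2 signal was -0.49, -0.36, -0.50 and -0.20 in the controls. On day 4 it was 0.28, 0.14, 0.01 and 0.29 after 6.7 Gy, and -0.01, -0.84, 0.35 and 0.01 after 7.4 Gy. All 4 arrays of the lower dose exceeded all controls, as did 4.1% of tested probes, whereas replicate 2 of the higher dose was the lowest array of the series. The differences were 0.57 ± 0.19 (1.48-fold, adjusted p = 0.092) and 0.27 ± 0.19 (1.20-fold, adjusted p = 0.41), the latter 0.50 without replicate 2 and 0.11 without replicate 3. On day 7 RNF43 was at -0.14, 0.09, -0.08 and 0.28 after 6.7 Gy and at -0.16, 0.19, -0.15 and -0.10 after 7.4 Gy, in both cases above every control, an order shared by 4.47% and 3.72% of tested probes. These differences were 0.42 ± 0.19 and 0.33 ± 0.19, with limma adjusted p-values of 0.47 and 0.45, and on day 12 they were 0.38 ± 0.23 and 0.36 ± 0.23. No difference reached 2-fold on this probe, and from day 4 to day 7 it moved by -0.15 ± 0.19 after 6.7 Gy and by 0.07 ± 0.19 after 7.4 Gy.

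The second RNF43 probe had a similar difference on day 4 after 6.7 Gy (0.60 ± 0.26, adjusted p = 0.18) but put the contrast elsewhere after 7.4 Gy. It was at -5.13, -4.63, -5.00 and -4.40 in the controls and at -3.99, -4.12, -3.82 and -4.26 on day 4 after 7.4 Gy, with no overlap, as for 7.84% of tested probes (0.74 ± 0.26, adjusted p = 0.087). On day 7 after 7.4 Gy it read -4.95, -4.38, -4.94 and -4.72, below every array of day 4 at that dose, as 6.4% of tested probes were. The difference between the days was -0.70 ± 0.26 (adjusted p = 0.14). Over 24 arrays the 2 probes correlated at r = 0.39. Both placed unirradiated ileum lowest of the 7 groups.

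EPHB2, a receptor tyrosine kinase that holds crypt cells in place through ephrins and is driven by Wnt, was also lowest in unirradiated ileum. There it ranged from -3.96 to -3.00. It ranged from -3.65 to -2.65 on day 4 after 6.7 Gy, from -3.49 to -2.79 on day 4 after 7.4 Gy, from -3.75 to -2.90 on day 7 after 6.7 Gy and from -3.56 to -3.06 on day 7 after 7.4 Gy. Every one of these ranges overlaps the controls. The differences ran from 0.18 on day 7 after 6.7 Gy (± 0.24) to 0.47 on day 12 after 6.7 Gy (± 0.29), and no adjusted p was under 0.36. Leaving out 1 array moved the value of day 4 after 6.7 Gy between 0.09 (without its replicate 4) and 0.46 (without control replicate 4).

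SOX9, a transcription factor of crypt progenitors and Paneth cells, was at -2.19, -2.33, -1.94 and -2.07 in the controls. On day 4 it was -1.89, -1.55, -1.99 and -0.85 after 6.7 Gy, and -1.55, -2.01, -1.39 and -2.11 after 7.4 Gy. The highest value, -0.85, came from replicate 4 of 6.7 Gy, the animal with the highest OLFM4. The differences were 0.56 ± 0.24 (1.48-fold, adjusted p = 0.18), or 0.32 without that replicate, and 0.37 ± 0.24 (adjusted p = 0.38). On day 7 the signal was -1.78, -1.76, -1.91 and -1.60 after 6.7 Gy, all above the controls as were 4.47% of tested probes, and -1.83, -1.32, -2.48 and -1.66 after 7.4 Gy, with differences of 0.37 ± 0.24 and 0.31 ± 0.24. The second SOX9 probe showed none of this, with -0.09 ± 0.19 and 0.02 ± 0.19 on day 4, and the 2 probes correlated at r = 0.24. Its arrays of day 12 after 6.7 Gy lay above all controls, as did 15.3% of tested probes (0.43 ± 0.24, adjusted p = 0.62).

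PROM1, a membrane glycoprotein of the crypt base and of other epithelial cells, varied widely between animals. In the controls it ranged from -4.68 to -3.54, and on day 4 after 6.7 Gy from -5.83 to -2.30, which spans all other arrays. The lowest of these, replicate 4, was not well above background and was the array with the highest OLFM4 and SOX9. The difference was 0.02 ± 0.50 on day 4 after 6.7 Gy, -0.16 ± 0.50 after 7.4 Gy, -0.27 ± 0.50 on day 7 after 6.7 Gy and -0.41 ± 0.50 after 7.4 Gy. None exceeded its error, and all adjusted p-values were at least 0.75. The 4 PROM1 probes followed each other closely (r = 0.67 to 0.94), so that the spread was shared by the probes.

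**Figure D2:**
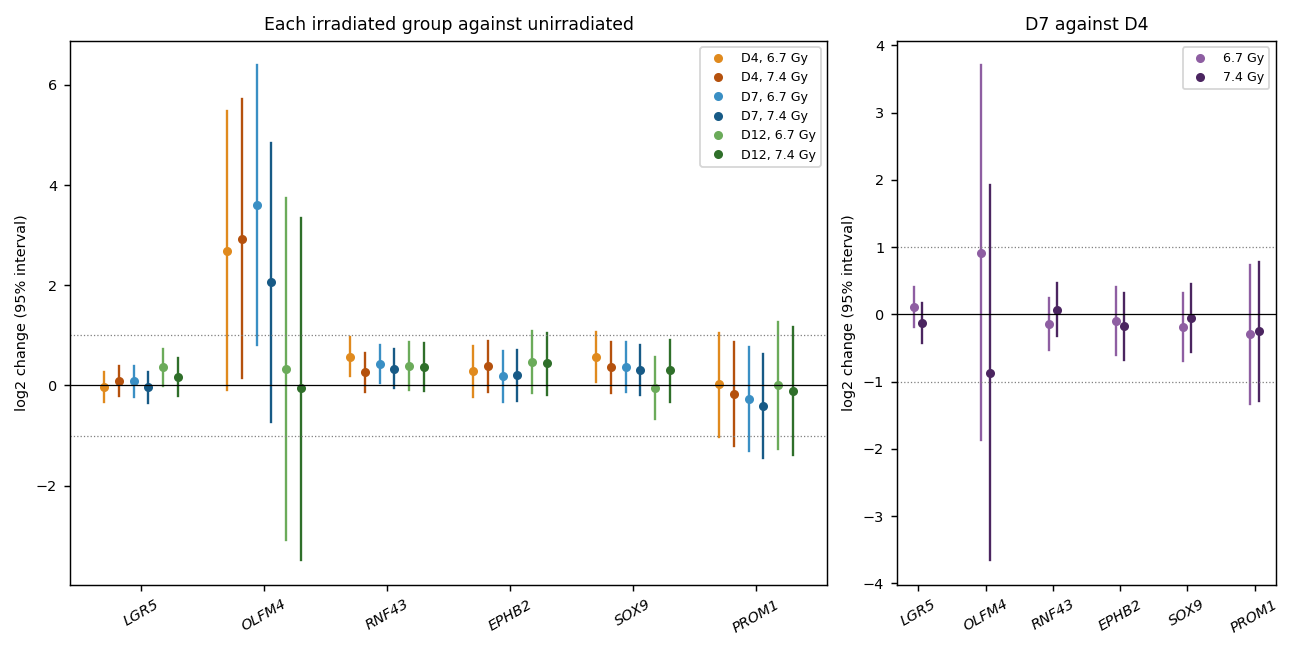
Log2 change with its 95% interval (y axis) for the 6 genes (x axis), against unirradiated ileum on the left and of day 7 against day 4 on the right; dotted lines mark a 2-fold change. Intervals of LGR5 stay within the 2-fold lines, those of OLFM4 are several units wide, and those wholly above 0 are RNF43 and SOX9 on day 4 after 6.7 Gy, OLFM4 on day 4 after 7.4 Gy, and RNF43 and OLFM4 on day 7 after 6.7 Gy; on the right every interval includes 0.

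As a list, 5 of the 6 genes had a positive difference from unirradiated ileum on day 4 after either dose. Among all genes tested 42.1% were higher after 6.7 Gy and 44.4% after 7.4 Gy. The 5 include OLFM4, whose testing and sign depend partly on the filter, and after 6.7 Gy also PROM1 at 0.02 ± 0.50. The medians of the list include OLFM4 as well. The median of the 6 was 0.43 after 6.7 Gy and 0.32 after 7.4 Gy, beside -0.07 and -0.05 over all 14119 genes tested. On day 7 the medians were 0.28 after 6.7 Gy and 0.26 after 7.4 Gy, beside 0 and -0.02. Then 5 and 4 of the 6 genes were positive, OLFM4 again among them, beside 50.2% and 47.3% of all genes. From day 4 to day 7 the median of the list was -0.12 after 6.7 Gy and -0.16 after 7.4 Gy. The median of the 6 genes was thus not lower on day 4 than in unirradiated ileum, nor higher on day 7 than on day 4, although LGR5 after 6.7 Gy and PROM1 after 7.4 Gy were slightly lower on day 4. Between the doses no tested probe of any gene was called on day 4 or on day 7, so 0% is the background there, as it is for the difference between doses in the change from day 4 to day 7. With the p left unadjusted, 0.424% of tested probes passed at 2-fold on day 4 and 0.39% on day 7, and no member did. OLFM4 after 7.4 Gy differed from OLFM4 after 6.7 Gy by 0.24 on day 4 and by -1.54 on day 7, both with an adjusted p of 0.98 or more.

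Across the 24 arrays SOX9 moved with OLFM4 (r = 0.66), with RNF43 (r = 0.57) and with EPHB2 (r = 0.54), and against PROM1 (r = -0.59). LGR5 stood apart, with r between -0.17 and 0.25 against the other 5. These correlations share arrays, groups and scaling, and they are descriptions only. Replicate 4 of day 4 after 6.7 Gy had the highest OLFM4 and SOX9 and the lowest PROM1, and the correlations between members are not given without it. Of 14118 other genes, CCNB1 was the most like OLFM4 (r = 0.88, and 0.81 without the 2 arrays farthest from the OLFM4 median). CCNB1 encodes cyclin B1, which drives cells into mitosis. LOC721397, LOC702813 and LOC695836 were also among the most similar (r = 0.85 to 0.86). For LGR5 the most similar were KIAA0408 and LOC703839 (both r = 0.76), RGS12 (0.75), ZBTB39 (0.74) and LOC702993 (0.72).

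Markers of dividing cells and of neutrophils were set beside OLFM4 array by array, and several arrays did not match. The summed linear signal of 10 dividing-cell genes, in multiples of the 75th percentile signal, was 26.2 to 30.8 in the controls. It was 37.2, 28.0, 43.8 and 73.0 in replicates 1 to 4 of day 4 after 6.7 Gy, where OLFM4 was high in replicates 3 and 4. After 7.4 Gy it was 40.9, 29.8, 42.9 and 34.8 on day 4, and replicate 2, within the control range for this sum, had OLFM4 at -4.44, above every control. Conversely, the sum was above every control in replicate 1 of day 4 after 6.7 Gy (37.2), in replicate 3 of day 7 after 7.4 Gy (36.7) and in replicate 2 of day 12 after 7.4 Gy (39.3), where OLFM4 was at -6.01, -7.19 and -6.26, the first 2 not well above background. The sum was also slightly above every control in replicate 1 of day 12 after 7.4 Gy (31.7), where OLFM4 was at -7.91, not well above background. On day 7 it was 38.7 to 48.1 after 6.7 Gy and 36.7 to 53.1 after 7.4 Gy, in both cases above every control, and on day 12 it was 27.2 to 28.0 and 31.7 to 39.3. Of 11 neutrophil markers 5 had a probe and 4 were tested, and none was called on day 4 or day 7. Their summed signal was 0.630 to 0.747 in the controls and 7.31 in replicate 4 of day 4 after 6.7 Gy, with S100A8 at 1.23 there and between -6.35 and -5.72 in the controls. S100A9 was at 2.14 in that array and between -2.39 and -1.97 in the controls, and these 2 genes made up most of the 7.31. In replicate 2 of day 4 after 6.7 Gy, with the lowest OLFM4 of the series, the sum was 1.28, above every control. In replicate 3, where OLFM4 was also high, it was 0.650, within the control range, on day 4 after 7.4 Gy it was 0.721 to 0.853, and in the 4 arrays of day 7 after 6.7 Gy it was 0.704 to 0.895. The part of neutrophil RNA, or of dividing cells, in the OLFM4 signal was not tested.

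**Figure D3:**
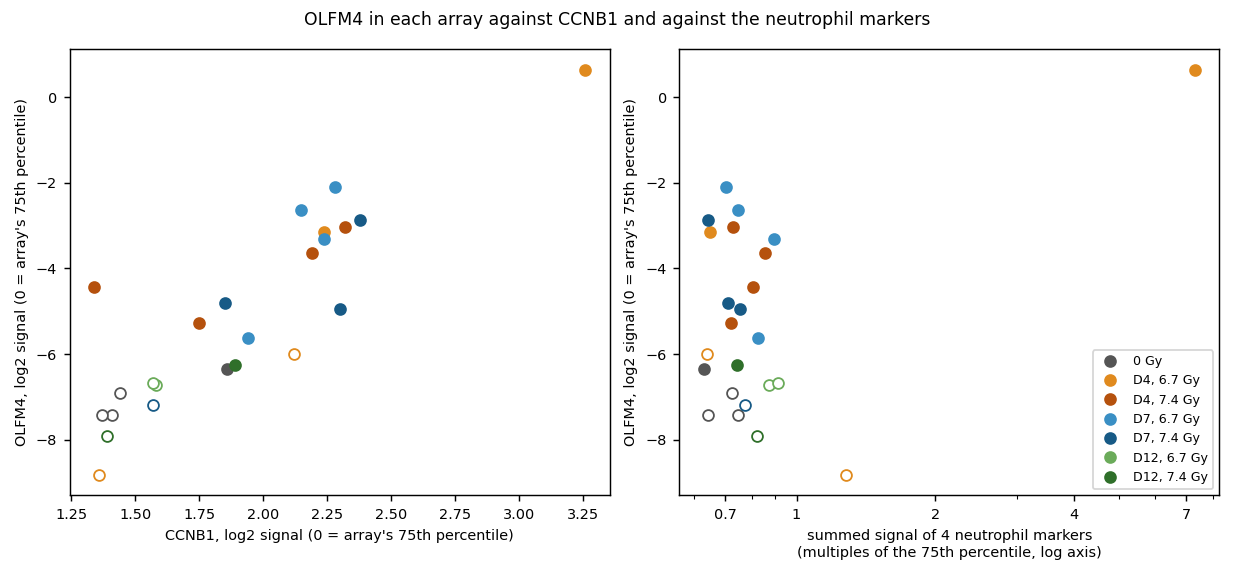
OLFM4 log2 signal (y axis) in each of the 24 arrays against the log2 signal of CCNB1 (left, x axis) and the summed signal of 4 neutrophil markers (right, x axis, log scale), coloured by group, with open symbols where OLFM4 was not well above background. CCNB1 was chosen as the gene most correlated with OLFM4 on these same arrays, so the left panel is no test of a relation. Most arrays with high CCNB1 have high OLFM4, but the array with the lowest CCNB1, at 1.34, has OLFM4 at -4.44, and on the right 1 array of day 4 after 6.7 Gy, at 7.31, stands far from the other 23.

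The wider set of Wnt target and receptor genes did contain genes that rose on day 4. Of 21 such genes 17 had a probe and 16 were tested. After 6.7 Gy 2 of the 16 were called higher and none lower, beside 0.978% of all probes called in either direction. After 7.4 Gy 3 were called higher and none lower, beside 2.33%. This list, like the others here, was chosen with earlier results of these data known. It counts the brightest tested probe of each gene, whereas the shares are over all tested probes. The counts are therefore no test of the list. The median of the 16 was 0.30 after 6.7 Gy and 0.48 after 7.4 Gy. On day 7 and day 12 none was called.

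Most markers of stromal cells also had positive differences on day 4. Of 10 fibroblast markers 9 were tested, and all 9 had a positive difference at either dose, with a median of 0.46 after 6.7 Gy, where none was called, and of 0.96 after 7.4 Gy, where COL3A1, DCN and LUM, genes of the collagen matrix, were called. Their summed signal was 40.5 to 77.5 in the controls, 67.4 to 108 on day 4 after 6.7 Gy and 87.7 to 160 after 7.4 Gy. On day 7 it was 40.7 to 68.8 and 64.0 to 105, the lower dose first. Of 6 tested endothelial markers 4 had a positive difference on day 4 after 6.7 Gy and 6 after 7.4 Gy, where VWF was called, and their sum was 1.99 to 3.37 in the controls, 1.74 to 3.96 and 3.26 to 4.75 on day 4, and 1.90 to 2.40 and 2.24 to 3.17 on day 7. The part of stromal RNA in the Wnt and stem cell gene signals was not tested.

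EPHB3, a relative of EPHB2 and another ephrin receptor under Wnt control, rose most of the 16 tested Wnt genes at both doses. Its log2 signal was -2.47, -2.54, -2.18 and -1.64 in the controls. On day 4 it was -0.66, -0.76, -0.99 and -0.03 after 6.7 Gy and -0.52, -0.91, -0.34 and -0.97 after 7.4 Gy, so that all 8 animals lay above all controls. The rise was 1.60 after 6.7 Gy and 1.52 after 7.4 Gy, both with a limma adjusted p of 0.0015. With array position in the fit it was 1.50 (adjusted p = 0.025) and 1.32 (adjusted p = 0.15), and fitted on the 6.7-Gy and control arrays alone the adjusted p was 0.095. On day 7 EPHB3 was at -1.68, -1.36, -1.81 and -1.04 after 6.7 Gy and at -1.57, -1.11, -1.94 and -1.43 after 7.4 Gy. Both group means lay between those of the controls and of day 4, and 3 of the 8 arrays were within the control range. From day 4 to day 7 it differed by -0.85 for the mean of both doses (adjusted p = 0.0037), which is less than 2-fold.

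MYC, the growth-promoting transcription factor, rose by 1.05 (adjusted p = 0.021) and 1.01 (adjusted p = 0.015) on day 4, and LEF1, a DNA-binding partner of beta-catenin, rose by 1.08 after 7.4 Gy (adjusted p = 0.018). Both lie just above the 2-fold limit. Each of these 3 calls was lost under 5 of 19 alternatives, array position in the fit among them for all 3, where MYC was 0.88 and 0.67 and LEF1 0.67. MYC after 6.7 Gy was lost also with slide as a block (1.06, adjusted p = 0.069), with the compared groups alone (1.05, adjusted p = 0.19), without control replicate 2 (0.88, adjusted p = 0.06) and without replicate 4 of day 4 (0.79, adjusted p = 0.054). After 7.4 Gy normexp took MYC to 0.99 and LEF1 to 0.91. Without control replicate 2, or without replicate 1 or 3 of day 4, MYC was 0.84, 0.99 and 0.88, and LEF1 was 0.99, 0.96 and 1.02 (adjusted p = 0.051 for the last). ZNRF3, which acts on Wnt receptors as RNF43 does, was higher by 0.72 and 0.73 on day 4 (adjusted p = 0.0061 and 0.0033), below 2-fold. From day 4 to day 7, for the mean of both doses, 6 of the 16 genes were lower at an adjusted p under 0.05 (CCND1, CD44, EPHB3, LEF1, MYC and ZNRF3) and 2 were higher (LGR4 and SP5). Their differences ran from -0.34 to -0.85 and from 0.43 to 0.47, and 13.2% of all probes passed that adjusted p.

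Of 16 further stem cell genes 13 had a probe and 11 were tested, and none was called in any comparison. Their median was 0.56 and 0.58 on day 4 and 0.31 and 0.23 on day 7, the lower dose first, in the groups whose fibroblast and endothelial sums are given above. At an adjusted p under 0.05 with any fold change, 2 were higher on day 4 after 6.7 Gy, beside 2.61% of all probes, and 4 after 7.4 Gy, beside 6.66%. LRIG1, a brake on growth factor receptors that marks a slowly dividing stem cell pool, was higher by 0.76 and 0.68 on day 4 (adjusted p = 0.024 at both doses) and by 0.76 and 0.69 on day 7 (adjusted p = 0.053 and 0.057). IGFBP4, a secreted binder of insulin-like growth factors, was higher by 0.85 and 0.90 on day 4 (adjusted p = 0.048 and 0.022) and by 0.11 and 0.20 on day 7. CLU, which marks revival stem cells after injury in mouse, differed by 0.84 and 0.75 on day 4 with adjusted p-values of 0.14 and 0.16.

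**Figure D4:**
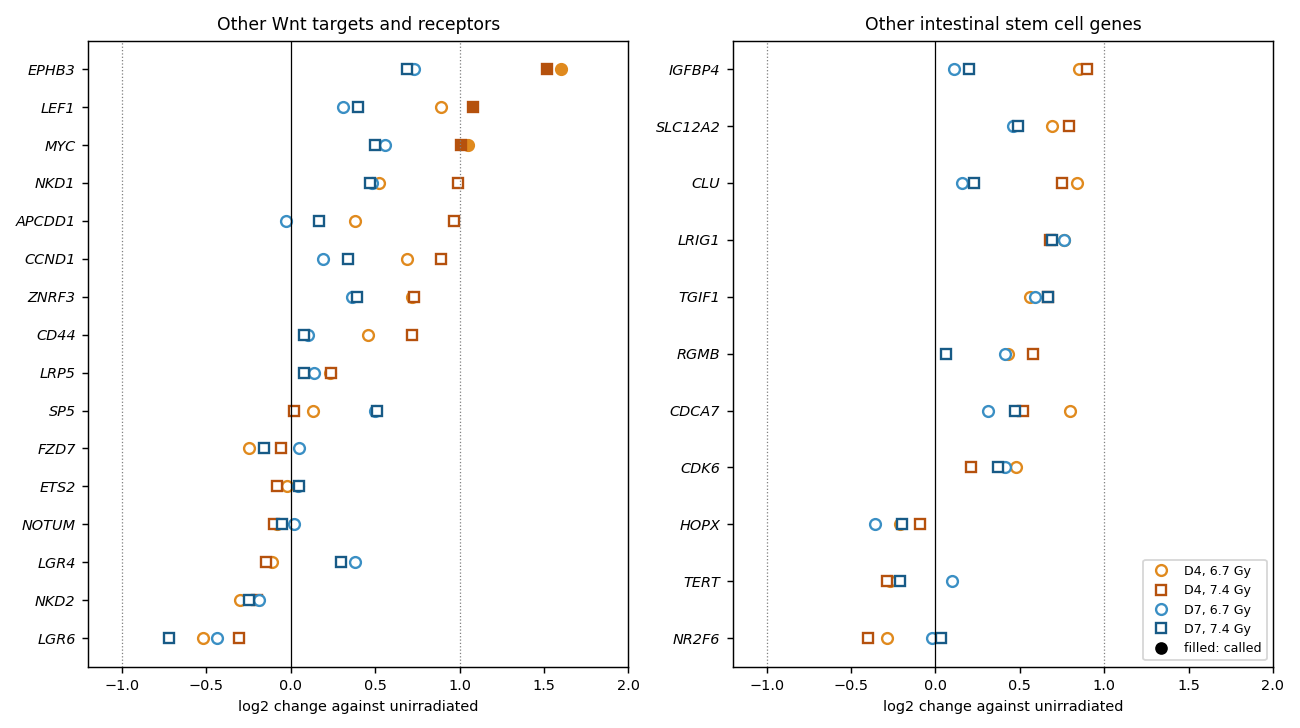
Log2 change against unirradiated ileum (x axis) of 16 other Wnt genes and 11 other stem cell genes (y axis, ordered by the value of day 4 after 7.4 Gy) for days 4 and 7 and both doses; filled symbols were called, dotted lines mark a 2-fold change. EPHB3, LEF1 and MYC hold all the called points, which are of day 4, and their values of day 7 lie nearer to 0.

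General epithelial genes lay lower on day 4. Of 11 tested markers, 10 had a negative difference at either dose, with a median of -0.56 after 6.7 Gy and -0.58 after 7.4 Gy. VIL1, the actin-bundling protein villin of the brush border, fell by 1.32 and 1.27 (adjusted p = 0.0011 and 0.00085) and KRT20, a keratin of mature surface cells, fell by 1.05 after 6.7 Gy (adjusted p = 0.015). With array position in the fit the VIL1 difference after 7.4 Gy was -1.09 (adjusted p = 0.14). The summed epithelial signal was 430 to 625 in the controls, 302 to 428 on day 4 after 6.7 Gy and 330 to 396 after 7.4 Gy, and 451 to 592 on day 7. VIL1 was higher again on day 7 than on day 4, by 1.19 after 6.7 Gy (adjusted p = 0.0084) and by 1.0 after 7.4 Gy (adjusted p = 0.0087), the second at the 2-fold limit. Fitted on the compared groups alone, VIL1 after 6.7 Gy had an adjusted p of 0.13 both on day 4 against the controls and between the days, and without replicate 4 of day 4 the latter was just under 2-fold. The call between the days after 7.4 Gy was lost under 6 of 18 alternatives: it was 0.95 with normexp, 0.97 with quantile normalization, 0.90 with slide as a block, 0.86 without replicate 1 of day 4, and 0.99 and 0.97 without replicate 1 or 3 of day 7. Lists of single epithelial cell types did not all do the same on day 4. Of 8 tested enterocyte markers none was called after 6.7 Gy, and after 7.4 Gy LCT, the lactase of the brush border, rose by 1.94 (adjusted p = 0.024) while FABP1, a fatty acid carrier, fell by 1.22 (adjusted p = 0.016), with list medians of -0.06 and 0. Of 5 tested goblet cell markers CLCA1 and AGR2 fell at both doses, and the medians were -1.0 and -0.53. Of 7 enteroendocrine and tuft cell markers CHGB rose by 1.26 after 7.4 Gy (adjusted p = 0.0043). Of these 7, 2 were higher and 5 lower after 6.7 Gy, and 3 were higher and 4 lower after 7.4 Gy, with medians of -0.19 and -0.2. Outside the epithelium, CD79B, a part of the B cell receptor, fell by 1.29 and 1.25, the lower dose first (adjusted p = 0.025 and 0.016), as 1 of 5 tested B cell markers. The share of the tissue that was epithelium and the level of crypt genes within it cannot be told apart in these arrays.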

How the data were processed

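Members, gene lists and alternatives were chosen with earlier results of these data known. The authors read out 24 ileum arrays with Feature Extraction 11.0.1.1 software. Its deposited intensity for each spot is background-subtracted and not scaled between arrays. For the normalized table the authors converted signals to log2, removed the array's 75th percentile, and the deposited probes are centred on their medians. The deposited raw table equals the scanner intensities within 1e-05 for 43553 of 43553 probes with 1 spot. Groups follow the titles and day and dose fields.

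Here log2 signals were computed again from the scanner intensities (43603 probes without controls), minus the 75th percentile of each array. Using R 4.3.3, limma 3.58.1 was fitted with 1 mean for each of 7 groups, which left 17 residual degrees of freedom, and Benjamini-Hochberg adjustment ran over all 36108 tested probes of a comparison. The 12 comparisons were 6 irradiated groups with unirradiated ileum, day 7 with day 4 at each dose and over both, the 2 doses on day 4 and on day 7, and the difference between doses of day 7 with day 4. Simulated arrays with 200 altered probes served as a check of the code. Intervals are limma's 95% intervals, not adjusted. A gene is given by its brightest tested probe. Named genes are the members, genes of the lists that were called, at most the 4 largest changes of a list besides those, and the 5 genes most correlated with LGR5 and with OLFM4, of which 1 is not reported here. Named outside that rule, after their values were seen, were ZNRF3, LRIG1, S100A8, S100A9 and the genes at an adjusted p under 0.05 between days. Alternatives were normexp background correction (offset 50, on spot and background medians, as mean signals were not used here), quantile normalization, other filters, slide, position or replicate number as a term, trended moderation, the methods' t-test, the deposited normalized values, the compared groups alone, leaving out each array, and, chosen after seeing the data, a floor at the lowest signal well above background. The number of animals limits precision. No sequence or coordinate is given, as the arrays name build rheMac2 and the gene table used here is of another assembly. The replicate numbers only number the animals of a group.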

Additional observations from a re-analysis of the deposited data

Results flagged for a closer look

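Over the 13 member probes, 65 groups of 4 arrays were examined for 1 array far from its 3 neighbours, and 2 such arrays were found. Chance alone gives about 1 in 20 groups. RNF43 in replicate 2 of day 7 after 7.4 Gy, at 0.19, lay above the other 3, which ranged from -0.16 to -0.10 (gap over range 0.832). The third-brightest PROM1 probe in replicate 4 of day 7 after 6.7 Gy, at -6.07, lay below the other 3, which ranged from -4.92 to -4.76 (gap over range 0.878).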

How the results depend on the processing

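No alternative called more than 1 of the 12 member probes in a comparison. The count rose from 0 to 1, with OLFM4, on day 4 after 7.4 Gy when the compared groups alone were fitted, and to 1 on day 4 after 7.4 Gy and 1 on day 7 after 6.7 Gy with the methods' t-test without adjustment. Of all 36108 tested probes, 418 were called with the compared groups alone, and 1083 and 370 with that t-test. Leaving out each array kept every count between 0 and 0. With normexp, differences that turned were OLFM4 from day 4 to day 7 (-0.05 after 6.7 Gy, -0.10 over both doses), SOX9 and PROM1 from day 4 to day 7 after 7.4 Gy (0.06 each) and OLFM4 between doses on day 4 (-0.63). With quantile normalization these were LGR5 on day 4 after 6.7 Gy (0.02), OLFM4 on day 12 after 7.4 Gy (0.07) and OLFM4 from day 4 to day 7 over both doses (-0.03). With slide as a block they were LGR5 on day 4 after 6.7 Gy (0.12), on day 7 after 7.4 Gy (0.11) and between these days after 6.7 Gy (-0.05), PROM1 on day 4 after 6.7 Gy (-0.21), OLFM4 on day 12 (-0.06 and 1.62), OLFM4 between the days (-0.12 after 6.7 Gy, -0.30 over both doses) and between doses on day 4 (-0.15), RNF43 between the days after 6.7 Gy (0.01) and EPHB2 after 7.4 Gy (0.07). With array position they were OLFM4 on day 4 (-0.40 and -3.25), between doses on day 4 (-2.85) and in the difference between doses of the day 7 change (2.43), and PROM1 on day 4 after 7.4 Gy (1.70). Position gave no value for day 7 or day 12 against unirradiated ileum or for day 7 against day 4. With the floor, OLFM4 turned on day 12 after 7.4 Gy (0.49), between days over both doses (-0.34) and between doses on day 4 (-0.52).

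Leaving out 1 array at a time gave LGR5 -0.15 to 0.06 and -0.04 to 0.16 on day 4, -0.04 to 0.15 and -0.17 to 0.03 on day 7, and PROM1 -0.55 to 0.63 on day 4 after 6.7 Gy. On day 12 it gave SOX9 -0.15 to 0.05 after 6.7 Gy, OLFM4 -0.88 to 0.76 and PROM1 -0.36 to 0.14 after 7.4 Gy, the remaining array being assumed to vary like the other groups. Between the days after 6.7 Gy it gave OLFM4 -0.59 to 2.57, EPHB2 -0.25 to 0.09, SOX9 -0.33 to 0.05 and PROM1 -0.90 to 0.27. After 7.4 Gy it gave RNF43 -0.17 to 0.22, SOX9 -0.22 to 0.16 and PROM1 -0.40 to 0.05. OLFM4 ran from -0.73 to 0.85 over both doses and from -1.26 to 1.90 between doses on day 4, and VIL1 from -0.27 to 0.01 on day 7 after 6.7 Gy. All these differences were within their error in the fit of all arrays, and the cause of each turn was not tested.

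With the replicate number as a block no member probe was called, and OLFM4 on day 12 after 7.4 Gy turned to 0.55. Arrays of the same number in different groups did not deviate together (62 pairs, r -0.26 to 0.36, median 0.03), so the numbers were not taken as pairs. Over all probes, calls on day 4 after 7.4 Gy were 842, and 485 with normexp, 647 with slide as a block, 144 with array position and 418 with the compared groups alone. On day 4 after 6.7 Gy they were 353, and 216, 311, 199 and 49 under the same settings. The methods' t-test was not run over both doses or for the difference between doses, and for dose comparisons single genes other than OLFM4 were not recomputed. Limits are the 2 animals of each day 12 group, OLFM4 signals near background, array position, and whole tissue.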

Other observations

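TYMS, the enzyme that makes thymidylate for DNA synthesis, was the dividing-cell gene with the clearest change: it rose by 1.52 and 1.44 on day 4, the lower dose first (limma adjusted p = 0.00043 and 0.00051) and was higher by 0.95 and 0.96 on day 7 (adjusted p = 0.041 and 0.024), below 2-fold. It was the only one of 10 tested dividing-cell genes that was called on day 4. The median of the 10 was 0.58 and 0.26 on day 4 and 0.50 and 0.51 on day 7. EFNB2, an ephrin ligand of villus cells that binds EPHB receptors, differed by -0.63 and -0.72 on day 4 (adjusted p = 0.033 and 0.0097) and was 0.57 higher on day 7 than on day 4 for the mean of both doses (adjusted p = 0.0022), each below 2-fold. Of 4 tested Paneth cell markers, which sit beside the stem cells at the crypt base, none was called in any comparison with unirradiated ileum, and their medians on day 4 were 0.29 and 0.26.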
